A study of Homo sapiens with 2 samples.

Results

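The serpins are a family of proteins with one shared fold, most of which inhibit serine proteases. Here the family was taken as every gene whose symbol is SERPIN followed by a clade letter from A to I and a number, with at least 1 probe set annotated to that symbol alone. This gave 30 genes with 48 probe sets, out of 19775 genes and 54613 probe sets other than array controls. The brightest probe set of each gene over both arrays stood for the gene. Expression was measured on 2 Affymetrix arrays in SW620, an established human colorectal cancer line derived from a lymph node metastasis and grown in RPMI-1640 medium. Both cultures carried a lentiviral short hairpin RNA. In the SOX2 knockdown culture the hairpin was directed against SOX2, a transcription factor of progenitor cells, and in the mock knockdown culture it had no target. The labels do not say whether either culture was a clone. With 1 array per group there were no replicates, so no difference was tested and no error between cultures can be given.

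A serpin inhibits by offering the protease a flexible loop as bait; the cut loop inserts into the body of the serpin and traps the enzyme in a covalent complex. Clade A holds secreted proteins, many of them made in the liver for the plasma. Clade B holds proteins that mostly act inside cells or at epithelial surfaces, encoded in clusters on chromosomes 6 and 18. Some family members inhibit nothing and serve as hormone carriers, as a collagen chaperone or as signalling proteins.

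All values are intensities on a linear scale, made with RMA, and all differences are log2 of SOX2 knockdown minus mock. Intensities under 68.5, the median over both arrays and called the floor here, were not taken as measured levels. A gene reached it when its higher value did. Where the lower value lay under the floor, the fold is given against the floor and is a lower bound. Counts and medians rest on the differences as deposited, so a gene could pass a limit through a value under the floor. SOX2 itself had 2 probe sets above the floor. The brighter one stood at 2077 with mock and 20.9 with SOX2 knockdown, at least 30.3-fold lower. The other stood at 333 and 120, a log2 difference of -1.47, so both were lower by very different amounts. One label text of both samples speaks of mouse liver. Of 12 hepatocyte markers 6 lay under the floor on both arrays, ALB among them at 21.5 and 20.0. Of 12 markers of colorectal epithelium 9 reached it with mock and 12 with SOX2 knockdown. Reaching the floor does not tell cell types apart, since 6 of 8 fibroblast and 5 of 8 neuronal markers also reached it with mock. So did 13609 of 19775 genes on at least 1 array. In level, the hepatocyte markers summed to 915 with mock and those of colorectal epithelium to 50677. EPCAM, an epithelial adhesion molecule, stood at 8910 and 9898. Other markers of that list were far apart between the arrays and are given beside SERPINA1.

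Of the 30 serpin genes, 16 reached the floor. At the 2-fold limit 3 of these were higher on the SOX2 knockdown array (SERPINA1, SERPINB3 and SERPINB5) and 2 were lower (SERPINF1 and SERPINI1). Over all 13609 genes that reached the floor, 8.44% were at least 2-fold higher and 7.29% at least 2-fold lower, together 15.7%. With values under the floor raised to it, the same 5 serpins passed the limit, and so did 14.5% of all genes. The median difference of the 16 serpins was 0.24, beside -0.0063 for all genes. In clades A and B, 10 of the 11 genes above the floor had a difference over 0, and the exception was SERPINA10 at -0.08. All 5 genes above the floor in the remaining clades had a difference under 0. SERPINA3, SERPINB3 and SERPINB5 reached the floor only on the SOX2 knockdown array, and SERPINF1 and SERPINI1 only on the mock array. The floor rule itself fixed the signs of these genes, so they add nothing to the counts by clade. Over all genes above the floor, 6649 had a difference over 0 and 6877 one under 0. The signs carry little weight for genes such as SERPINA4, SERPINA9 and SERPINA10, whose differences were no more than 0.10 in size. Of the 5 genes past the limit, SERPINA1 alone had both values above the floor; in the other 4 the lower value lay under it.

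**Figure D1:**
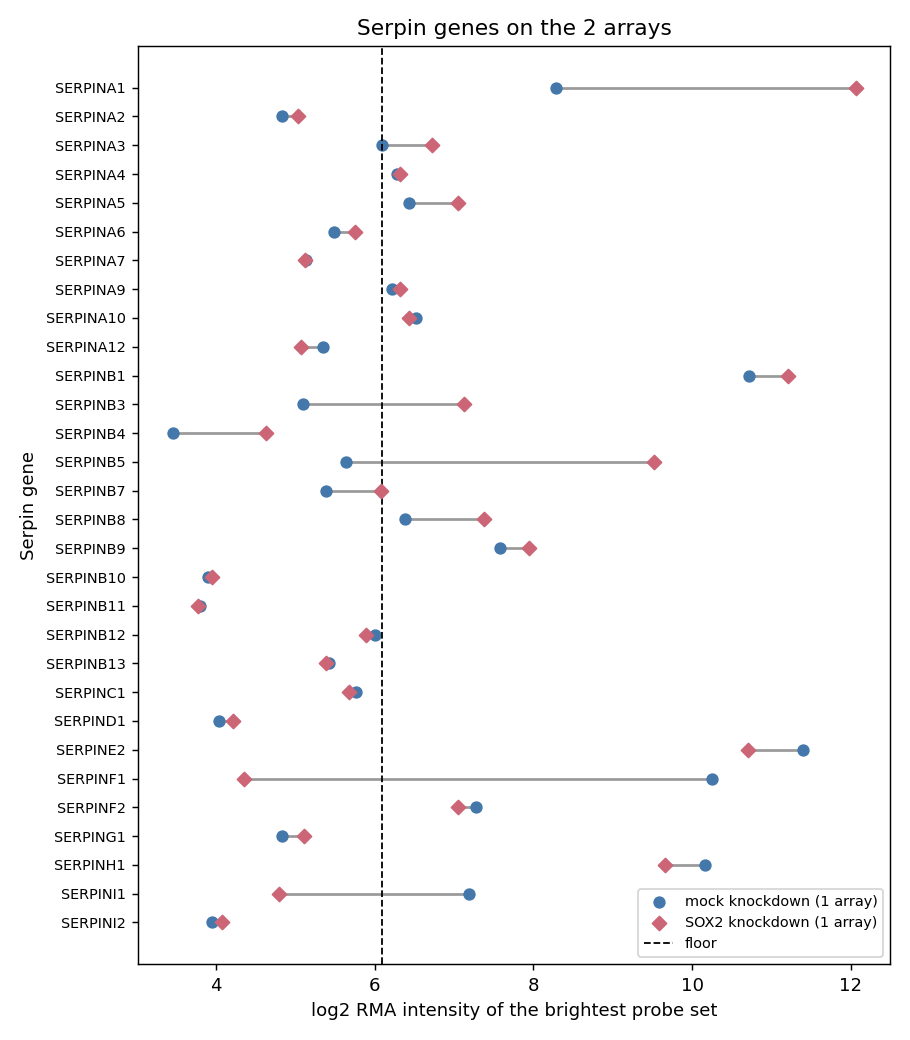
Log2 RMA intensity of the brightest probe set of each of the 30 serpin genes on the mock array (circles) and the SOX2 knockdown array (diamonds), 1 array each, joined by a line; the dashed line is the floor at 6.10. The long lines belong to SERPINA1, SERPINB5 and SERPINB3, with the diamond on the right, and to SERPINF1 and SERPINI1, with the diamond on the left.

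**Figure D2:**
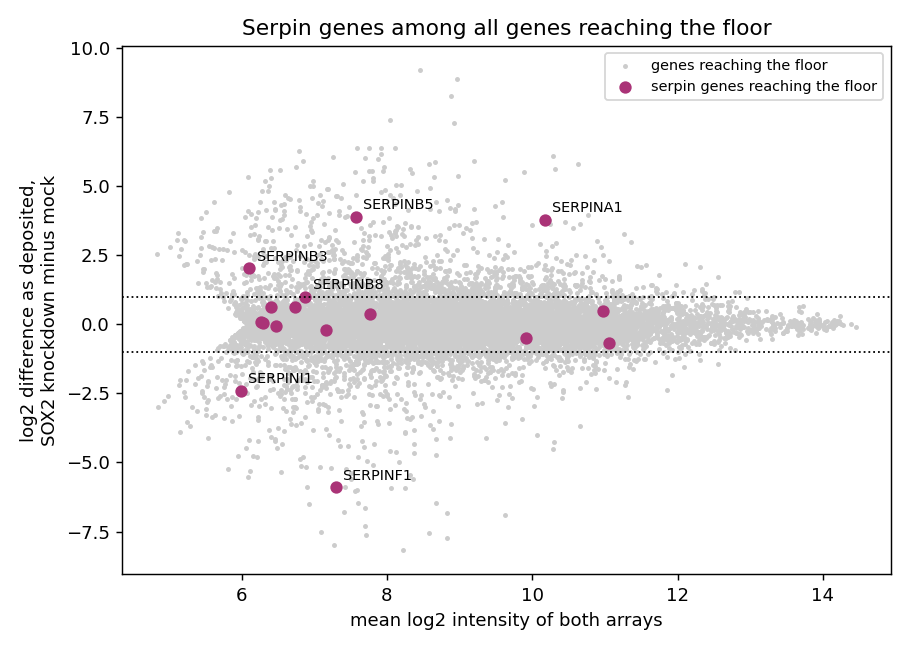
Log2 difference (SOX2 knockdown minus mock) against mean log2 intensity for the 13609 genes reaching the floor (grey) and the 16 serpins among them (purple), as deposited; dotted lines mark 2-fold. SERPINA1 at 3.78 and SERPINB5 at 3.89 lie above the bulk of genes and SERPINF1 at -5.89 below it, with 1 value of SERPINB5 and of SERPINF1 under the floor.

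Among the secreted clade A inhibitors, SERPINA1 showed by far the longest distance between the arrays. SERPINA1 encodes alpha-1-antitrypsin, the plasma inhibitor of neutrophil elastase, which intestinal epithelium also makes. Its brightest probe set, 211429_s_at, stood at 313 with mock and 4301 with SOX2 knockdown, a log2 difference of 3.78 or 13.8-fold. Only 120 of the 13609 genes had a larger positive difference. A further probe set, 202833_s_at, went from 175 to 2692, a difference of 3.94. Probe set 230318_at stood at 28.3 and 198, at least 2.89-fold higher. Probe set 211428_at lay under the floor on both arrays, with a difference of 0.03. All 3 probe sets that reached the floor were therefore higher with SOX2 knockdown, by different amounts.

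Markers of colorectal epithelium differed between the arrays as well. Their summed intensity was 50677 with mock and 80152 with SOX2 knockdown. Of the 12 markers 3 were higher and 1 lower by at least 2-fold, or 33.3%, beside 15.7% of all genes. KRT20, a keratin of differentiated intestinal cells, stood at 23.2 and 10763, at least 157-fold higher. LGALS4, a galectin of gut epithelium, stood at 39.1 and 6010, at least 87.7-fold higher. VIL1, which encodes the brush border protein villin, was lower, at 2063 and 867. CDH17 stood at 35.5 and 78.0 and passed the limit only through its value under the floor. The part of these differences in the SERPINA1 values was not tested.

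RefSeq gives SERPINA1 several starts on the minus strand of chromosome 14 (GRCh38.p14), and the downstream one is that used in liver. The 250 bases before each of 2 starts are shown because this gene had the widest difference above the floor. Capitals mark a match to one of the short motifs searched on both strands: the SOX motif CATTGT, the E-box CAGGTG, the AP-1 motif TGACTCA or TGAGTCA and the TATA motif TATAAA.
SERPINA1 upstream start, chr14:94390636-94390885: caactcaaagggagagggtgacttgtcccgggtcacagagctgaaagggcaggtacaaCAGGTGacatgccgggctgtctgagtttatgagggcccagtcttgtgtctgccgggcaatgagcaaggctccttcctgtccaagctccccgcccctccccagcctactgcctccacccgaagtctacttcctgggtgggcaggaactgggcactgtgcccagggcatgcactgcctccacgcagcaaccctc
SERPINA1 downstream start, chr14:94388603-94388852: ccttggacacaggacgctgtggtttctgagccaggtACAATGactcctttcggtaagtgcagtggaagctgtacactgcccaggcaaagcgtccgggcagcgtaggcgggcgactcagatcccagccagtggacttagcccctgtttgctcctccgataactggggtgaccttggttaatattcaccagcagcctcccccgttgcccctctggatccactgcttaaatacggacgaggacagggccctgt
The upstream window held 1 E-box, 192 bases before the start, and the downstream window 1 SOX motif, 214 bases before it. These are matches of letters, and no binding was measured. The probe sets of these arrays lie toward the 3′ end of transcripts, so the intensities do not show which start was used.

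The other clade A genes showed far smaller differences. SERPINA3, an inhibitor of cathepsin G and chymase, stood at 68.4 with mock, just under the floor, and 106 with SOX2 knockdown, at least 1.55-fold higher. SERPINA5, the protein C inhibitor, stood at 86.5 and 132, 1.53-fold higher. Neither passed the 2-fold limit. SERPINA4, the kallikrein inhibitor kallistatin, stood at 78.0 and 79.6. SERPINA9, known from germinal centre B cells, stood at 74.5 and 79.7. SERPINA10, which inhibits coagulation factor X with the help of protein Z, stood at 91.7 and 86.8. These 3 genes lay close to the floor on both arrays and differed by no more than 0.10 on the log2 scale in size. Under the floor on both arrays were SERPINA6 and SERPINA7, the carriers of cortisol and thyroid hormone, the adipokine gene SERPINA12 and the transcribed pseudogene SERPINA2, with intensities from 28.5 to 53.9. The 12 hepatocyte markers summed to 915 with mock and 923 with SOX2 knockdown. None of the 6 above the floor differed by 2-fold, beside 15.7% of all genes.

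SERPINA1 stood apart from the other serpins of its cluster on chromosome 14, though not from every gene nearby. The cluster there held 9 measured serpins, 6 of them above the floor, and SERPINA1 was the only one past 2-fold. Among the 10 nearest measured other genes above the floor, 5 on each side, the median difference was -0.03. Of these 10 genes 2 differed by at least 2-fold, both higher, beside 8.44% of all genes higher. The 2 were IFI27, an interferon-stimulated gene, at 53.2 and 3094, and CLMN, encoding the transmembrane protein calmin, at 47.6 and 263. In both the mock value lay under the floor. Both are separated from SERPINA1 by genes within 2-fold.

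**Figure D3:**
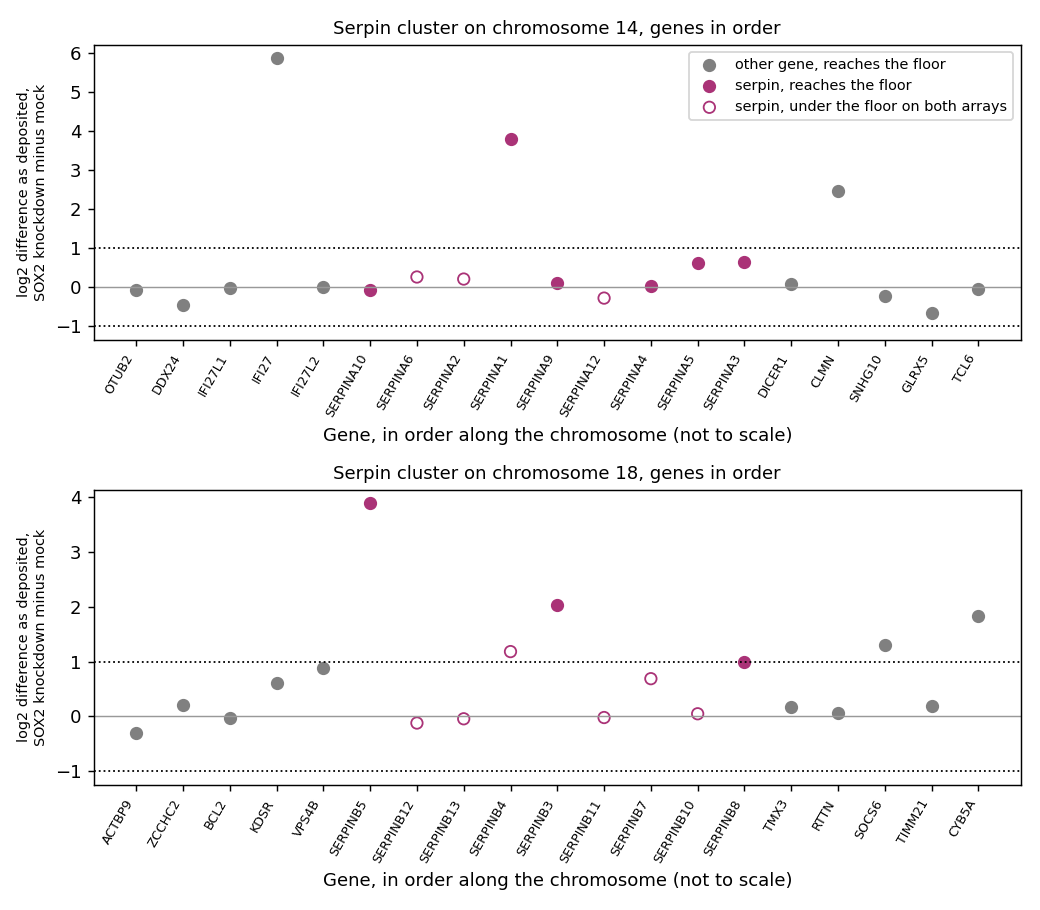
Log2 difference (SOX2 knockdown minus mock) of serpins and of the 5 nearest measured genes on each side, in chromosomal order and not to scale, for the clusters on chromosomes 14 (top) and 18 (bottom); open circles lie under the floor on both arrays and dotted lines mark 2-fold. On chromosome 14 SERPINA1 at 3.78 stands between serpins near 0, and the flanking gene IFI27 lies higher, at 5.86. On chromosome 18 SERPINB5, SERPINB3 and SERPINB8 lie at 3.89, 2.03 and 0.99.

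All 5 clade B genes above the floor had higher values on the SOX2 knockdown array, with a median difference of 0.99. By at least 2-fold 2 of them were higher, beside 8.44% of all genes. Those 2, SERPINB3 and SERPINB5, reached the floor only on the SOX2 knockdown array, so the floor rule itself fixed their direction. With the floor required on both arrays 3 clade B genes remained, 0 passed the limit and the median was 0.49. SERPINB5 showed the widest difference. It encodes maspin, a serpin of epithelial cells that does not inhibit proteases in the usual way and is known as a tumour suppressor in breast. Probe set 204855_at stood at 49.6 with mock and 736 with SOX2 knockdown, at least 10.7-fold higher. The other probe set of SERPINB5, 1555551_at, lay at 11.4 and 10.6, under the floor on both arrays, so the difference rests on 1 probe set.

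The 250 bases before the start of SERPINB5, on the plus strand of chromosome 18 in GRCh38.p14, are shown as those of the clade B gene with the widest difference, with motif matches in capitals.
SERPINB5, chr18:63476708-63476957: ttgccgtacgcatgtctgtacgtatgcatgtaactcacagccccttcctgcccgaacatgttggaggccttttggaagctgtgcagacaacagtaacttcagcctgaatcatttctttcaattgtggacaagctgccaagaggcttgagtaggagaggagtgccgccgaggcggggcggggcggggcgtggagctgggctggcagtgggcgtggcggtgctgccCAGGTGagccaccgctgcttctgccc
The single match was an E-box 26 bases before the start. Over the window of 300 bases that runs 50 bases past the start, SERPINB5 had the highest ratio of observed to expected CpG dinucleotides of the 10 clade B windows on chromosome 18, 0.602. Those windows had a median of 0.185, beside 0.579 for the 35116 RefSeq promoter windows of that length.

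SERPINB3 and SERPINB4, the squamous cell carcinoma antigens, are a pair of close copies of which SERPINB3 inhibits cysteine cathepsins and SERPINB4 inhibits cathepsin G and chymase. For SERPINB3, probe set 209719_x_at stood at 34.1 with mock and 140 with SOX2 knockdown, at least 2.04-fold higher. Its other probe set, 209720_s_at, stood at 11.1 and 31.0, under the floor on both arrays. SERPINB4, with 211906_s_at, stood at 10.95 and 24.9, also under the floor. Only 1 of these 3 probe sets therefore gives a measured level, on 1 array. Probe sets whose names end in x_at can bind transcripts of related genes, so the SERPINB3 value cannot be told apart from one shared with SERPINB4.

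How alike the copies are can be seen in the 250 bases before their starts, both on the minus strand of chromosome 18 in GRCh38.p14. Capitals mark the bases that differ between them.
SERPINB3, chr18:63661894-63662143: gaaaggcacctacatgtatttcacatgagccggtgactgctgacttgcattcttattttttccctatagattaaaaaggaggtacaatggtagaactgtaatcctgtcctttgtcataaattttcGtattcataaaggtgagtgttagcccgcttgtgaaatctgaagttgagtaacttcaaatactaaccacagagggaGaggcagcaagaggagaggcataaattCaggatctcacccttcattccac
SERPINB4, chr18:63644257-63644506: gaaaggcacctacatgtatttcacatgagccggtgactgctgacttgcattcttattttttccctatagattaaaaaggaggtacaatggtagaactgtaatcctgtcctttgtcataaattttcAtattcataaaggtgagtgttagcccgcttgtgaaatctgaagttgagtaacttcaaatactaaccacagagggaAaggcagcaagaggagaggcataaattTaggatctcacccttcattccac
They differ at 3 of 250 bases, an identity of 98.8%. Both hold 1 SOX motif, as ACAATG, 167 bases before the start. The alignment put no cost on unaligned ends of the windows. Under it the pair with the next most identical bases, SERPINA1 and SERPINA5, had 35 among only 63 aligned bases. So short an overlap cannot rank how alike the other windows are.

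SERPINB8, an inhibitor of the proprotein convertase furin, lay at the edge of the 2-fold limit. Probe set 206034_at stood at 83.5 and 166, a log2 difference of 0.99 or 1.99-fold, just short of the limit, whereas SERPINB3 at 2.04-fold or more was the nearest clade B gene past it. The other probe set of SERPINB8, 1554616_at, stood at 67.6 and 75.7, a difference of 0.16, so the gene's probe sets disagreed on the size.

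The clade B genes of chromosome 6 were within 2-fold. SERPINB1, an inhibitor of the granule proteases elastase, cathepsin G and proteinase 3, had 4 probe sets above the floor. The brightest stood at 1691 with mock and 2376 with SOX2 knockdown, 1.40-fold higher. The differences of the remaining SERPINB1 probe sets ran from 0.28 to 0.53, so all 4 agreed in direction. SERPINB9, which protects cells from granzyme B, stood at 191 and 247, 1.30-fold higher, and its further probe sets lay under the floor. The promoter windows of SERPINB1 and SERPINB9 were CpG-rich, with ratios of 0.839 and 0.819.

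The 6 clade B genes under the floor on both arrays all lie on chromosome 18. SERPINB7, known as megsin and expressed in skin, came closest to it, at 42.0 with mock and 67.7 with SOX2 knockdown. SERPINB12 stood at 64.4 and 59.3, and SERPINB13, which inhibits cathepsins in squamous epithelium, at 43.0 and 41.8 for the brightest of its 6 probe sets. SERPINB10, of haematopoietic cells, and SERPINB11 lay between 13.7 and 15.5 on both arrays. SERPINB4, given above, is the sixth. No difference can be read from these 6 genes, which lie between SERPINB5 and SERPINB8 on the chromosome, because neither array gives a measured level. Of the 10 nearest measured genes that are no serpins, 2 differed by at least 2-fold, both higher, beside 8.44% of all genes higher. The median of the 10 was 0.20. The 2 were SOCS6, a suppressor of cytokine signalling, at 118 and 292, and CYB5A, a cytochrome, at 772 and 2742.

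Several clade B serpins of chromosome 18 are genes of squamous epithelium, and some squamous markers also differed between the arrays. Of 6 measured squamous markers 2 reached the floor with mock and 5 with SOX2 knockdown, and their summed intensity was 321 and 2431. Of the 5 above the floor 2 were at least 2-fold higher, or 40%, beside 8.44% of all genes higher. The median of the 5 was 0.42, or 0.28 with values under the floor raised to it. The summed intensity with SOX2 knockdown came mostly from the 2 genes past the limit, SPRR3 and KRT13. SPRR3, of the cornified envelope, stood at 37.3 and 1359 and KRT13, a keratin of mucosal epithelium, at 31.4 and 784. KRT5, the basal keratin, stood at 76.4 and 79.5, DSG3 at 76.2 and 84.2 and IVL at 62.2 and 83.3. KRT14 lay under the floor on both arrays. The part of this difference in the clade B values was not tested.

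**Figure D4:**
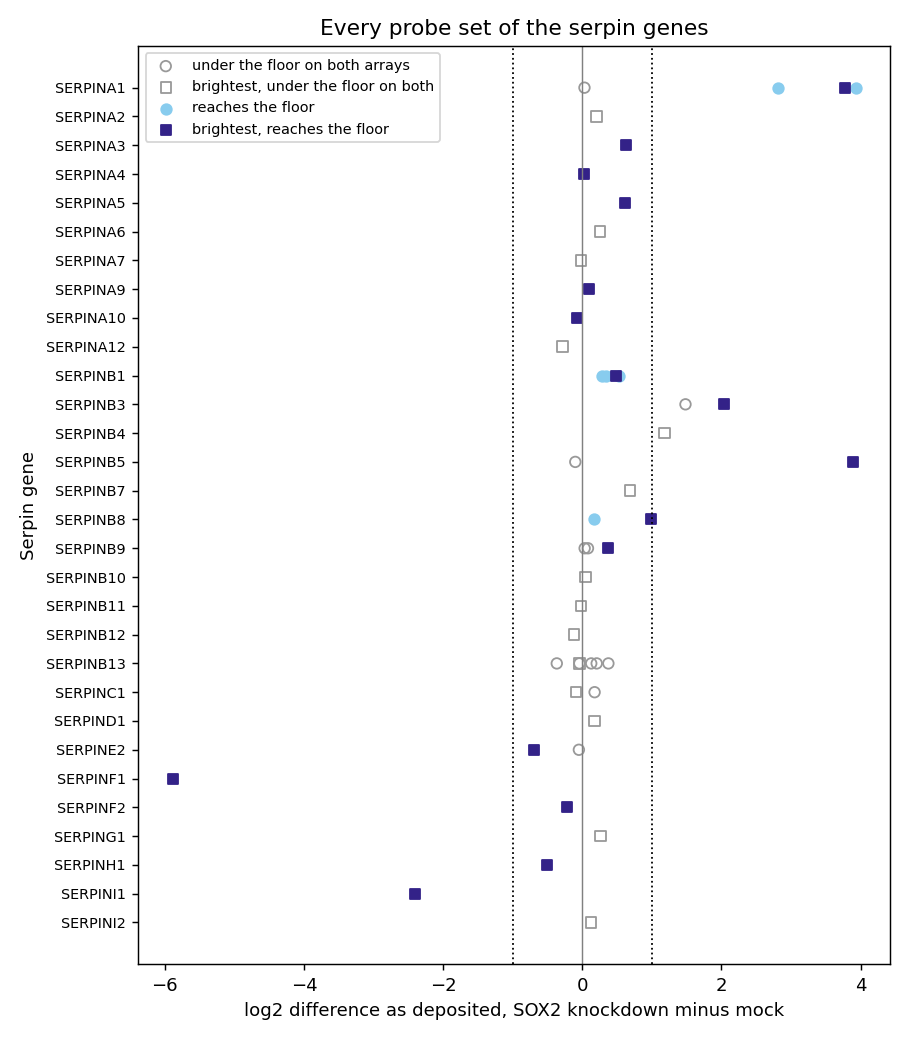
Log2 difference (SOX2 knockdown minus mock, as deposited) of all 48 probe sets of the 30 serpin genes; squares are the brightest probe set of a gene, filled symbols reach the floor on at least 1 array, and dotted lines mark 2-fold. SERPINA1 has 3 filled symbols from 2.81 to 3.94, while SERPINB5, SERPINB3, SERPINF1 and SERPINI1 each have 1.

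SERPINF1 showed the widest difference of the family, toward lower values. It encodes pigment epithelium-derived factor, a secreted serpin without protease inhibition that restrains the growth of blood vessels and supports neurons. Its only probe set, 202283_at, stood at 1214 with mock and 20.5 with SOX2 knockdown, at least 17.7-fold lower. SERPINF2, the plasmin inhibitor alpha-2-antiplasmin, is its neighbour on chromosome 17. SERPINF2 stood at 155 and 133, 1.17-fold lower. Of other nearby measured genes, chosen after their values were seen, WDR81 differed by -0.22, SMYD4 by -0.34 and RPA1, a subunit of the single-strand DNA-binding complex, by -0.43. Of these 5 genes SERPINF1 alone was past 2-fold, and with 1 probe set there is no second measurement of it.

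SERPINI1, neuroserpin, inhibits tissue plasminogen activator and is best known from neurons. Its only probe set, 205352_at, stood at 146 with mock and 27.8 with SOX2 knockdown, at least 2.14-fold lower. SERPINI2, its relative on chromosome 3 known from pancreas, lay under the floor at 15.5 and 16.9. The nearest measured genes of SERPINI1 above the floor, chosen after their values were seen, were NMD3 and PDCD10 on one side, with differences of -0.32 and 0.13, and GOLIM4 and MECOM on the other. GOLIM4 differed by 0.05. MECOM, a zinc finger transcription factor, stood at 29.9 with mock and 649 with SOX2 knockdown, the opposite direction to SERPINI1. Of 8 neuronal markers 5 reached the floor on each array and none of these differed by 2-fold, beside 15.7% of all genes.
The bases before the SERPINI1 start, on the plus strand of chromosome 3 in GRCh38.p14, are shown as those of a gene that was lower. Capitals mark the motif match.
SERPINI1, chr3:167735471-167735720: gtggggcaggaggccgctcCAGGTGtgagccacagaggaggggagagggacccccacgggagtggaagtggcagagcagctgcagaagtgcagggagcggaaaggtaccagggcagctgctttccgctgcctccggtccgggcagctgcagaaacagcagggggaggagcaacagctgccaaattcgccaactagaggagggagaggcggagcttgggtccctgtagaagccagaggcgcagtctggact
The match was an E-box 231 bases before the start. No SOX motif was found in this window, nor in those of SERPINB5 and the upstream SERPINA1 start.

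Some motif matches stood in windows of genes above the floor that lay within 2-fold. These were the E-box in SERPINA4 and SERPINH1, the TATA motif in SERPINB8 and SERPINB9 and the AP-1 motif in SERPINB8. Of the 33 windows of 23 serpin genes, 9 held the SOX motif, in 8 genes: SERPINA1, SERPINA12, SERPINB3, SERPINB4, SERPINB7, SERPINB12, SERPINB13 and SERPINI2. That is 27.3% of the serpin windows, beside 10.8% of all 35116 windows. Of these 8 genes only SERPINA1 and SERPINB3 reached the floor, and both passed the 2-fold limit, SERPINB3 with its mock value under the floor. The others lay under the floor on both arrays, so no difference can be read from them. Any link between motif and difference was not tested. An E-box stood in 10 serpin windows, or 30.3%, beside 20.6% of all windows. An AP-1 motif stood in 4 serpin windows, or 12.1%, of SERPINB7, SERPINB8 and SERPINB13, beside 4.95% of all windows. The TATA motif was found in 9 serpin windows, or 27.3%, beside 11.5% of all windows. Windows of genes with several starts, and of the copies SERPINB3 and SERPINB4, are not independent of each other, and the shares were not tested. Nor were the shares adjusted for base composition. The median share of G and C was 58.7% over all windows. It was 52.3% for clade A, 42.7% for clade B on chromosome 18, 70.7% for clade B on chromosome 6 and 59.0% for the other clades.

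SERPINE2 and SERPINH1 were lower on the SOX2 knockdown array, by less than 2-fold. SERPINE2, protease nexin-1, inhibits thrombin, urokinase and plasmin at the cell surface. It stood at 2699 with mock and 1671 with SOX2 knockdown, 1.61-fold lower, at 212190_at, and its other probe set lay under the floor. SERPINH1, also called HSP47, is a chaperone of collagen in the endoplasmic reticulum and stood at 1150 and 809, 1.42-fold lower. Of 15 genes of collagen folding 3 passed the limit, or 20.0%, beside 15.7% of all genes: 2 were higher, the lysyl hydroxylase PLOD2 at 1.43 and the prolyl hydroxylase subunit P4HA2 at 1.18 (another probe set at 0.49), and P3H1, a prolyl 3-hydroxylase, was lower at -1.01. Their median of -0.06 lay near 0. The plasma inhibitors SERPINC1 (antithrombin), SERPIND1 (heparin cofactor) and SERPING1 (C1 inhibitor) lay under the floor on both arrays. SERPINC1 stood at 54.4 and 51.1, SERPIND1 at 16.4 and 18.6, and SERPING1 at 28.6 and 34.4.

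Among the classes of protease that serpins inhibit, most had a median near 0, and no difference between classes was tested. Of 12 cysteine proteases above the floor 7 were higher and 1 lower by at least 2-fold, or 66.7%, beside 15.7% of all genes. Their median was 1.44, or 0.99 with values under the floor raised to it, and then 6 were higher. Cathepsin CTSH stood at 167 with mock and 3558 with SOX2 knockdown, CTSS at 66.1 and 425, and CTSZ at 823 and 4162, although another probe set of CTSZ differed by 0.20. CTSL, a target of SERPINB3, stood at 193 and 489, and CTSB was lower at 2955 and 1407. Among 14 tissue kallikreins 3 were at least 2-fold higher, or 21.4%, and none was lower. Over all genes 8.44% were higher and 15.7% passed in either direction. The 3 were KLK10 by 3.78, KLK11 by 3.66 and KLK6 by 2.52. The other probe set of KLK10 was at least 2.83-fold higher. Of 11 epithelial membrane serine proteases 3 were higher, or 27.3%, beside 8.44% of all genes higher. These were ST14 (matriptase) at 702 and 2107, PRSS8 (prostasin) at 60.7 and 262, and TMPRSS4 at 61.4 and 400. The medians of the kallikreins and the membrane proteases, 0.17 and -0.03, lay near 0.

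Of 11 plasminogen and coagulation enzymes above the floor 2 passed the limit, or 18.2%, near the share of all genes. PLAU, the urokinase that SERPINE2 inhibits, stood at 910 with mock and 103 with SOX2 knockdown, 8.84-fold lower. PROS1, the anticoagulant protein S, was higher at 196 and 404. PLAT, the target of SERPINI1, lay under the floor at 31.8 and 23.7. Of 11 leukocyte granule proteases 4 reached the floor, and 1 of these passed the limit, or 25%, beside 15.7% of all genes. GZMB, the target of SERPINB9, stood at 270 and 33.3, at least 3.95-fold lower. ELANE, the elastase that SERPINA1 inhibits, lay under the floor at 63.1 and 62.1. None of 6 complement proteases above the floor differed by 2-fold, beside 15.7% of all genes.

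Of 18 protease inhibitors of other folds 8 were higher and 1 lower by at least 2-fold, beside 15.7% of all genes in either direction; their median was 0.50. TFPI, the tissue factor pathway inhibitor, stood at 36.4 with mock and 1677 with SOX2 knockdown, at least 24.5-fold higher. Its 5 probe sets all lay under the floor with mock and above it with SOX2 knockdown, and their lower bounds ran from 1.05-fold to 28.7-fold. SPINK1, a trypsin inhibitor of pancreas and gut, stood at 28.2 and 1277, and the cystatin CST6 at 102 and 1156, with another CST6 probe set at a difference of 0.79. The cystatin CST7 was lower, at 632 and 66.0. Of 11 receptors and cofactors of serpins 3 were higher and 1 lower by at least 2-fold, or 36.4%, beside 15.7% of all genes. The median of these 11 genes was 0.44. PROCR, the protein C receptor, stood at 52.1 and 1324. The thrombin receptor F2R stood at 92.0 and 790, with another probe set at 0.01. Of the lipoprotein receptors, LRP8 stood at 341 and 1762, and VLDLR at 223 and 43.6.

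**Figure D5:**
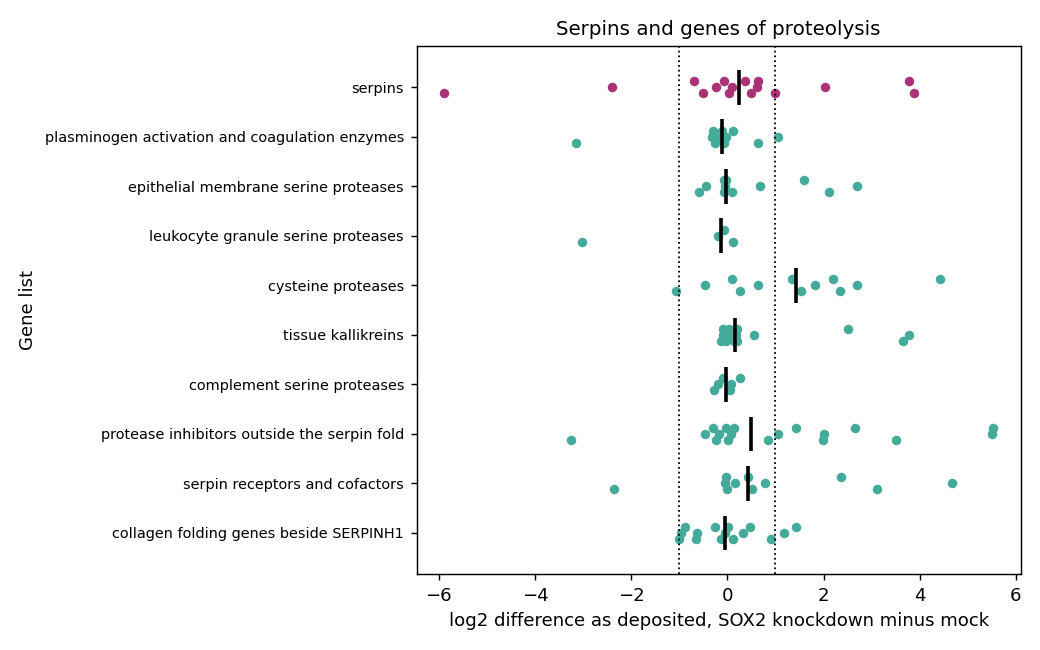
Log2 difference (SOX2 knockdown minus mock, as deposited) of the 16 serpins above the floor and of genes above the floor in 9 lists of proteases, cofactors, inhibitors and collagen folding genes; each point is 1 gene, bars are medians and dotted lines mark 2-fold. The serpin points run from -5.89 to 3.89 around a median of 0.24, and the cysteine proteases have a median of 1.44.

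The promoter windows of the family differed in base composition. The 13 windows of clade A genes had ratios of observed to expected CpG from 0 to 0.488, and those of chromosome 18 clade B genes from 0 to 0.602. SERPINH1, with 0.841 and 0.882 at its 2 starts, and the upstream start of SERPINE2, with 0.762, lay near those of the chromosome 6 genes, 0.819 and 0.839, on either side of them. SERPINI1 had 0.492. The downstream start of SERPINE2 had 0.390. The 5 windows with ratios from 0.762 to 0.882 belong to 4 genes whose differences lay within 2-fold. So did those of 11469 of all 13609 genes above the floor and of 11 of the 16 serpins. This is a description and was not tested.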

How the data were processed

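RNA was labelled with biotin by an Affymetrix 3′ in vitro transcription kit from 250 ng of total RNA per the labels' protocols, with 1 array for each culture. The authors deposited an intensity for each probe set, on a linear scale; per the submitters' processing notes RMA was the tool, and its version is not given in the sources here. Quantile normalization hides changes in total RNA, and summarised values carry no detection call.

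Probe sets were named from the platform annotation, with symbols updated through Entrez identifiers in a RefSeq gene table (GRCh38.p14). Probe sets with several symbols were left unnamed, and serpins that this annotation pairs with no probe set of their own were not analysed here. Log2 was taken of the deposited intensity with no pseudocount. The floor was the 50th percentile of all values, and the limit was 2-fold on the difference as deposited. Every serpin above the floor was named with both values, and from each gene list up to 3 genes in each direction past the limit (CTSL, PLAT and ELANE were added as serpin targets after their values were seen). The members and lists were chosen with earlier results of these data known. Promoter windows (250 bases before to 50 after a start) came from RefSeq for 23 of the 30 genes; those of SERPINA2, SERPINB10, SERPINB11, SERPINC1, SERPINF1, SERPINF2 and SERPING1 were not used here. The promoters printed and the motifs were chosen after the expression values were seen, and a further motif, of the interferon response element type, was searched and is not reported here. Probe sets of 1 gene with both values above the floor differed among themselves with an SD of 0.34 (log2) over 5623 genes; this holds no variation between cultures. Counting was tested on simulated data with planted differences. Alternatives covered normalization, floor, probe set choice, a pseudocount of 32 and the limit. Python 3.11.15, numpy 2.4.6, pandas 2.3.3, statsmodels 0.14.6, biopython 1.88 and matplotlib 3.10.9 were used.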

Additional observations from a re-analysis of the deposited data

Results flagged for a closer look

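A probe set annotated to both SERPINB4 and SERPINB3, 210413_x_at, was outside the comparison because it names no single gene. It had an intensity of 37.6 with mock and 75.9 with SOX2 knockdown, above the level of the mock array and just over the floor of 68.5.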

How the results depend on the processing

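No paired analysis was possible because each group held 1 array. Of 66 recomputed counts and medians 44 stayed the same. For a count this meant within 1.5 times. For a median it meant within the SD between probe sets divided by the square root of the number of genes. Of 125 recomputed differences of single genes, 111 stayed within that SD, 0.34, and 14 moved. A change of sign was looked for only in the serpins past the limit, and none was found. Raising values to the floor or adding a pseudocount cannot change a sign. When a gene had to reach the floor on both arrays, which takes out genes that lie under it on 1 array, 1 serpin (SERPINA1) was at least 2-fold higher, 0 were lower and 0 clade B genes passed. With the floor at the 75th percentile 1 serpin was lower and 1 clade B gene passed; 1 clade B gene also passed with the mean of all probe sets and without probe sets ending in s_at or x_at, where SERPINB3 drops out. With a limit of 1.5-fold 6 serpins were higher, SERPINA3, SERPINA5 and SERPINB8 being added, beside 29.8% of all genes past it in either direction. Centring the arrays on their medians or by intensity put SERPINB8 past 2-fold. The serpin median was 0.098 for a floor at the 25th percentile or a floor required on both arrays, 0.37 at the 75th, 0.11 with no floor, 0.063 with the mean of probe sets and 0.13 with the smallest difference. The clade B median was 0.59 for a floor at the 25th percentile, 0.49 at the 75th, with no floor or with both arrays above it, 0.58 with the mean of probe sets, 0.37 with the smallest difference, 0.68 without s_at and x_at sets and 0.78 with the pseudocount. The number of arrays limits every value, and signal near the floor limits SERPINB3, SERPINI1 and most of clade A.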

Other observations

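SERPINB9P1, a transcribed pseudogene beside SERPINB9 on chromosome 6 that the family rule leaves out, had an intensity of 89.2 with mock and 45.7 with SOX2 knockdown, while SERPINB9 stood at 191 and 247.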
